A study of Mus musculus with 12 samples.

Results

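The 10 genes described here encode the contents of the cytotoxic granule and inhibitors of its proteases: the granzymes Gzma, Gzmb, Gzmc, Gzmk and Gzmm, the pore-forming protein Prf1, the granzyme inhibitors Serpinb9 and Serpinb6b, the granule proteoglycan Srgn and the granule cathepsin Ctsw. They were chosen by name for that role, with earlier results of these data known. They were matched by Ensembl gene ID, and all 10 were found among the 37991 genes measured. RNA was sequenced from natural killer (NK) cells of C57Bl/6 mouse bone marrow, sorted as positive for NK1.1 and CD49b, in 12 libraries. Ctrl cells carried floxed alleles without Cre, given as Id2F/F in the sample protocols and as Id2F/F or Id2F/F Tcf7F/F in the study design. Id2KO cells were Ncr1Cre Id2F/F, Tcf1KO cells Ncr1Cre Tcf7F/F and DKO cells Ncr1Cre Id2F/F Tcf7F/F, with 3 libraries in each of the 4 groups. Ncr1Cre acts only in cells that have begun to express Ncr1 (the receptor NKp46), and every comparison with Ctrl also holds the presence of Cre. The 3 samples of a group are called independent, but whether each came from a separate animal is not said, so p-values measure the spread among these samples. Age and sex are not given in the sources used here.

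NK cells kill by releasing these granules onto a target cell. Perforin opens the target's membrane, and granzymes, a family of serine proteases, enter and cleave proteins that lead to cell death. Serglycin, the product of Srgn, holds granzymes and perforin in the granule, while serpins in the cytosol of the killer cell bind granzymes that leak out. Id2 encodes a helix-loop-helix protein that keeps E proteins from DNA, and Tcf7 encodes the transcription factor TCF-1.

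Levels are FPKM, sequenced fragments corrected for the length of the gene and the size of the library, so they can be compared between genes. Fold changes are given as differences of log2(FPKM + 1), each with its standard error (SE), a scale that understates the change of low genes. The library sizes behind the values ran from 13977524 to 20209587 reads. Id2 RNA averaged 152 FPKM for Ctrl, 18.0 for Id2KO, 114 for Tcf1KO and 42.3 for DKO. Id2 RNA was thus 11.9% of Ctrl in Id2KO and 27.8% in DKO. It was higher in DKO than in Id2KO by 1.18 ± 0.16 (SE) on the log2 scale (limma, adjusted p = 0.0205). Id2 RNA was therefore unequal wherever DKO is set against Id2KO, and whether the degree of deletion differed was not tested. Tcf7 RNA averaged 40.9, 84.8, 35 and 62.4 FPKM in the same order. It was higher in Id2KO than in Ctrl by 1.04 ± 0.16 (SE) on the log2 scale (limma, adjusted p = 0.0279). Since a whole-gene value includes exons outside a floxed segment, Tcf7 RNA does not check the labels of Tcf1KO and DKO. None of the 8 NK cell markers was at 0 in a group, and their summed level was 912 to 1059 FPKM for Ctrl, 740 to 1081 for Id2KO, 698 to 728 for Tcf1KO and 730 to 875 for DKO. Il2rb led this sum, at 407 FPKM in Ctrl and 478 in Id2KO, and the other 7 markers had negative log2 differences in Id2KO (median of the 8, -0.24), such as Ncr1 (192 and 124 FPKM) and Itga2 (46.7 and 33.6). In Tcf1KO and in DKO, too, 7 of 8 were negative, with medians of -0.34 and -0.45, and the part of this in the granule gene levels was not tested. Ctrl replicate 2, Id2KO replicate 3 and DKO replicate 3 had the lowest array weights (limma's relative precision of a library), 0.590, 0.555 and 0.586. Some of the results that rest on them, not all, are also given without them. In RNA from whole sorted populations, fewer cells that express a gene and less RNA per cell cannot be told apart.

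Mean RNA levels of Gzma, Gzmb and Prf1 in Id2KO were 2.19-fold, 4.39-fold and 2.95-fold below Ctrl. In DKO, Gzma overlapped with Ctrl, while Gzmb and Prf1 had means between those of Id2KO and Ctrl. None of these differences passed the test across all genes, with Gzmb in Id2KO nearest to the threshold. Srgn differed little between any groups.

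The 10 genes spanned a wide range in Ctrl, with Gzma at 757 ± 52.9 FPKM, Ctsw at 204 ± 27.1, Gzmb at 118 ± 26.5, Prf1 at 71.3 ± 6.90, Srgn at 53.3, Serpinb9 at 35.7 ± 1.40 and Serpinb6b at 27.7 ± 5.01 (SD, n = 3). Among protein-coding genes Gzma ranked at place 15 by mean level for Ctrl, 52 for Id2KO, 14 for Tcf1KO and 10 for DKO. Gzmk, Gzmm and Gzmc lay at 3.74, 3.91 and 1.10 FPKM in Ctrl. Together the 10 genes took 0.249% to 0.261% of all reads for Ctrl libraries, 0.111% to 0.163% for Id2KO, 0.225% to 0.280% for Tcf1KO and 0.194% to 0.297% for DKO. The Id2KO range lay below those of the other groups without overlap.

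**Figure D1:**
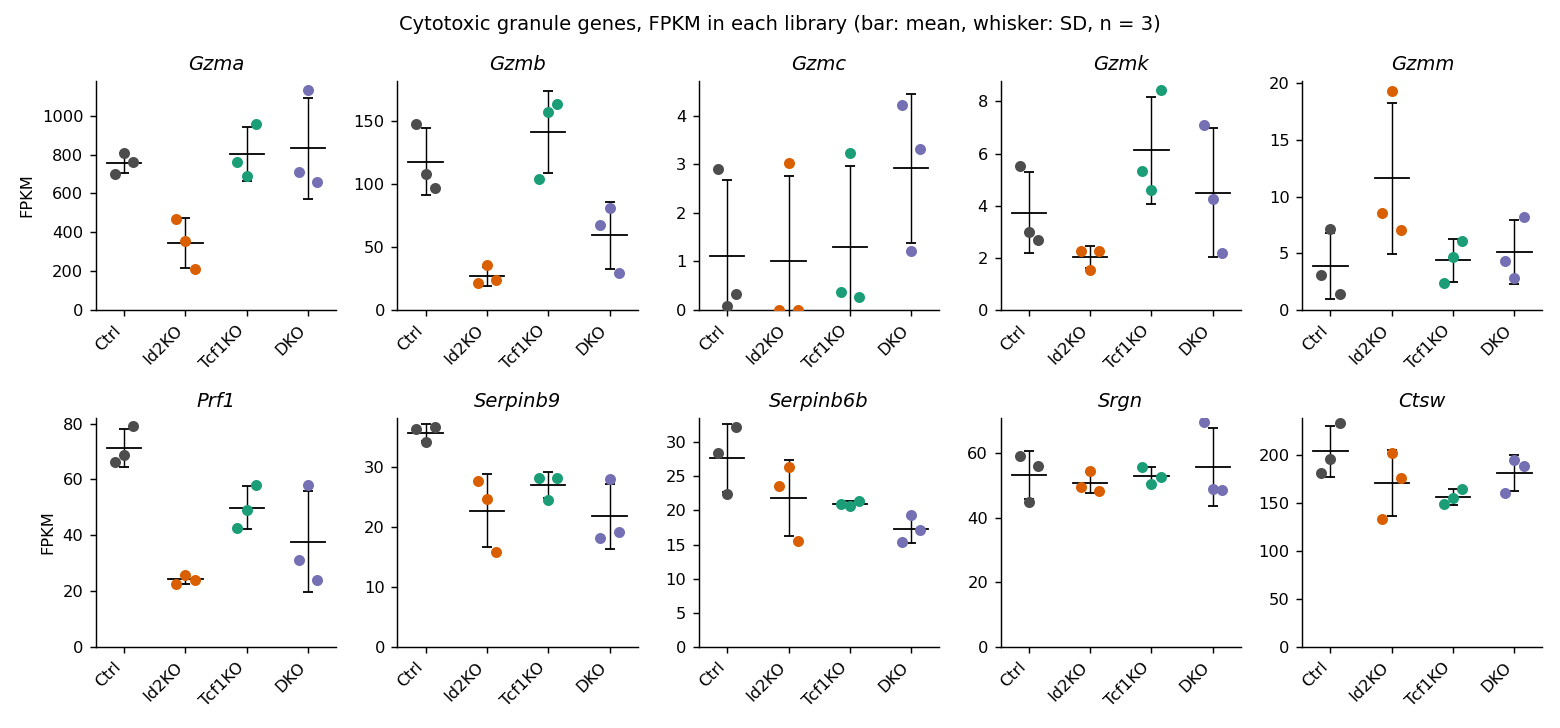
FPKM (linear axis from 0, a separate scale for each gene) of the 10 granule genes in each of the 12 libraries, with bars for group means and whiskers for the SD (n = 3). For Gzma the 3 Id2KO points, between 211 and 470 FPKM, lie below every other library, and for Gzmb the Id2KO points lie between 21.4 and 35.5.

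Granzyme A (Gzma, ENSMUSG00000023132, chr13:113093825-113100981, minus strand, GRCm38) is a trypsin-like protease and the most abundant granzyme RNA here. Its level was 702, 807 and 761 FPKM for the Ctrl libraries, 470, 357 and 211 for Id2KO, 764, 689 and 957 for Tcf1KO, and 710, 1132 and 657 for DKO. Every Id2KO library was below the 9 others, and the ranges of Ctrl, Tcf1KO and DKO overlapped. The Id2KO mean of 346 ± 130 FPKM (SD, n = 3) was 2.19-fold below Ctrl, a log2 difference of -1.20 ± 0.29 (SE) that did not pass the threshold of 0.05 (limma, adjusted p = 0.186). Without the 3 libraries of low weight this difference was -0.83 (adjusted p = 0.301).

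The DKO mean of Gzma, 833 ± 260 FPKM (SD, n = 3), was 0.10 above Ctrl on the log2 scale (SE 0.29, adjusted p = 0.953). All 3 DKO libraries were above all 3 Id2KO libraries, by 1.30 ± 0.29 (SE) on the log2 scale (adjusted p = 0.143), or by 1.13 without the 3 libraries of low weight (adjusted p = 0.178). The effect of targeting Id2 in cells with Tcf7 also targeted, minus its effect alone, was 1.22 ± 0.40 (SE) for Gzma, and this difference of effects did not pass the test (adjusted p = 0.831). Id2 RNA itself was higher in DKO than in Id2KO, and the part of that in this value was not tested. Gzma in Tcf1KO, 803 ± 138 FPKM (SD, n = 3), differed from Ctrl by 0.07 ± 0.29 (SE, adjusted p = 0.999).

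Granzyme B (Gzmb, ENSMUSG00000015437, chr14:56258838-56262260, minus strand) cleaves caspases and other substrates after aspartate. Its level was 147, 108 and 97.2 FPKM for Ctrl, 21.4, 35.5 and 23.5 for Id2KO, 104, 157 and 163 for Tcf1KO, and 67.2, 81.2 and 29.7 for DKO. All Id2KO and all DKO libraries were below all Ctrl and all Tcf1KO libraries, and DKO replicate 3 lay within the Id2KO range. The Id2KO mean was 4.39-fold below Ctrl, which was the widest gap among the 10 genes in any of the 5 pairwise comparisons on the log2 scale (-2.10 ± 0.35 (SE), adjusted p = 0.0506).

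The Gzmb difference in Id2KO missed the threshold narrowly, and 5 of 22 other settings put it past the threshold. The adjusted p was 0.00934 without DKO replicate 3 and 0.0444 without DKO replicate 2. DKO libraries are outside this comparison and enter it through the shared estimate of the spread and the set of genes tested. Leaving out any Ctrl or Id2KO library gave an adjusted p of 0.0943 to 0.175, the highest without Id2KO replicate 1. The log2 difference was between -2.32 and -1.93 in all 22 settings. Without the 3 libraries of low weight it was -2.08 (adjusted p = 0.1002). DKO libraries were lower than Ctrl by 1.07 ± 0.35 (SE) on the log2 scale (adjusted p = 0.352) and lower than Tcf1KO by 1.33 ± 0.35 (SE, adjusted p = 0.364). Without DKO replicate 3 the DKO difference from Ctrl was -0.64, which is over 1.5 times smaller, and without the 3 libraries of low weight it was -0.69 (adjusted p = 0.613). Without those 3 libraries the DKO difference was -0.90 from Tcf1KO (adjusted p = 0.672) and 1.39 from Id2KO (adjusted p = 0.180). The DKO mean of 59.4 ± 26.7 FPKM stood between those of Id2KO, 26.8 ± 7.64, and Ctrl (SD, n = 3), and its difference from Id2KO of 1.03 ± 0.35 (SE) did not pass (adjusted p = 0.307). The difference of effects was 0.78 ± 0.50 (SE) for Gzmb (adjusted p = 0.907).

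Perforin (Prf1, ENSMUSG00000037202, chr10:61297833-61304680, plus strand) forms the pore through which granzymes reach the target. Its level was 66.2, 68.6 and 79.1 FPKM for Ctrl, 22.6, 25.7 and 24.1 for Id2KO, 42.7, 48.9 and 57.9 for Tcf1KO, and 31.2, 58.2 and 23.8 for DKO. Every library of the 3 Cre groups was below every Ctrl library, and the Id2KO libraries were also below all Tcf1KO libraries. The Id2KO mean of 24.1 ± 1.57 FPKM (SD, n = 3) was 2.95-fold below Ctrl, with a log2 difference of -1.52 ± 0.26 (SE) that missed the threshold (adjusted p = 0.0603).

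For Prf1 in Id2KO, too, 5 of 22 other settings passed. The adjusted p lay between 0.00401 (without DKO replicate 2, outside this comparison) and 0.183 (without Ctrl replicate 2) in the 22 settings. Leaving out any Ctrl or Id2KO library gave 0.0999 to 0.183. The log2 difference stayed between -1.57 and -1.45 in these settings, and was -1.55 without the 3 libraries of low weight (adjusted p = 0.142). In Tcf1KO Prf1 was lower than Ctrl by 0.51 ± 0.26 (SE) on the log2 scale (adjusted p = 0.999), and in DKO by 1.0 ± 0.26 (SE, adjusted p = 0.224). DKO replicate 2 stood apart from the other two DKO libraries, and without it the DKO difference was -1.35 and passed the threshold (adjusted p = 0.0481). It was -0.72 without DKO replicate 3 (adjusted p = 0.538) and -0.75 without the 3 libraries of low weight (adjusted p = 0.526). The difference between the effects of targeting Id2 with and without Tcf7 targeted was 1.04 ± 0.37 (SE, adjusted p = 0.831) for Prf1, and 0.69 without DKO replicate 2 (adjusted p = 0.800).

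The levels of Gzma and Gzmb did not keep the same ratio across the groups. The ratio of Gzma to Gzmb FPKM was 4.76, 7.46 and 7.83 for Ctrl, 22.0, 10.04 and 8.99 for Id2KO, 7.35, 4.38 and 5.86 for Tcf1KO, and 10.6, 13.9 and 22.1 for DKO. Every Id2KO and every DKO library had a higher ratio than every Ctrl and every Tcf1KO library. The sum of the 5 granzymes was 861 to 926 FPKM for Ctrl, 244 to 503 for Id2KO, 858 to 1135 for Tcf1KO and 701 to 1222 for DKO, and Gzma made up 80.2% to 93.8% of it in every library.

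**Figure D2:**
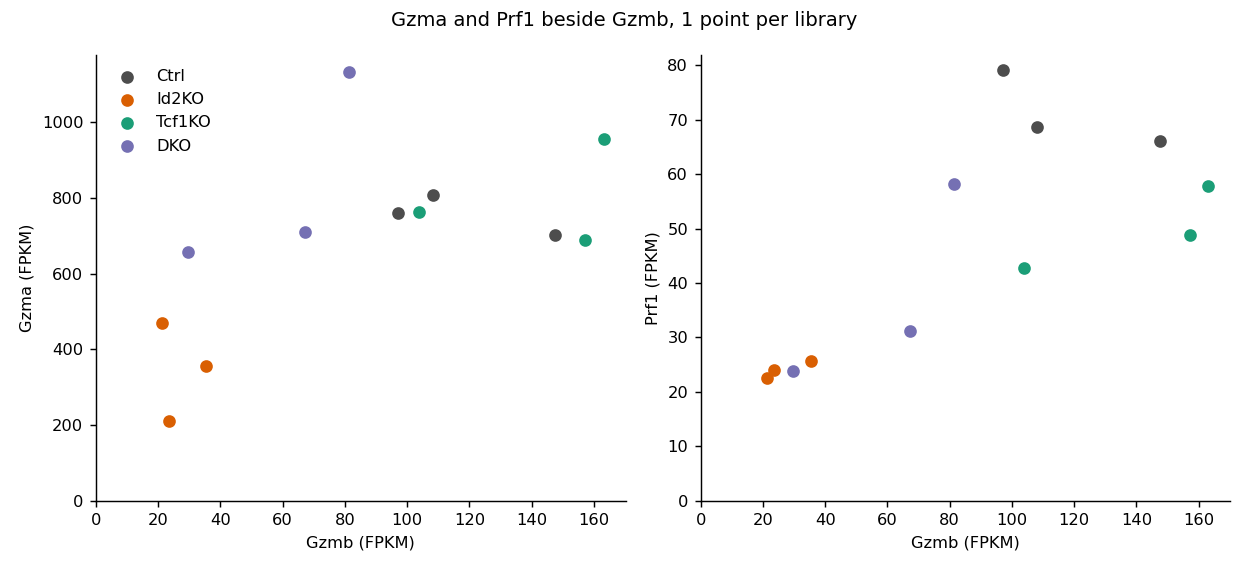
Gzma (left) and Prf1 (right) against Gzmb, all in FPKM on linear axes from 0, with 1 point per library and a colour per group. In the left panel DKO points reach Gzma levels of 657 to 1132 FPKM at Gzmb levels of 29.7 to 81.2, and in the right panel the Ctrl points sit highest, at 66.2 to 79.1 FPKM of Prf1.

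The start regions of these 3 genes are shown because Id2 acts on E proteins, which bind E-boxes (letters CANNTG), and because the 3 genes had low levels in Id2KO. The sequences are RefSeq windows on GRCm38.p6 of 300 bases, from 250 before to 50 after the annotated start, 5′ to 3′ on the gene's strand, with E-box matches in capitals. Their positions are chr13:113100932-113101231 (Gzma, minus strand), chr14:56262285-56262584 (Gzmb, minus strand) and chr10:61297586-61297885 (Prf1, plus strand).
Gzma: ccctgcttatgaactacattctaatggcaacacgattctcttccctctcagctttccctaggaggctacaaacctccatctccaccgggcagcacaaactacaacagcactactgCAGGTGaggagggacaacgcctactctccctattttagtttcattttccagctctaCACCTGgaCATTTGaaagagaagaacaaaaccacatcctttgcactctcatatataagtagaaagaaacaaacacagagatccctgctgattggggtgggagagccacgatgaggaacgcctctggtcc
Gzmb: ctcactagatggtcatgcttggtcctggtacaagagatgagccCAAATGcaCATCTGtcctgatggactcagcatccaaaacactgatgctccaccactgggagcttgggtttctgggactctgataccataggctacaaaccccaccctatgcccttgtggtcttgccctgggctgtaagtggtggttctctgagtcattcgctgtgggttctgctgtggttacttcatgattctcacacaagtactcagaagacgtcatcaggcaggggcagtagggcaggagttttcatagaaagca
Prf1: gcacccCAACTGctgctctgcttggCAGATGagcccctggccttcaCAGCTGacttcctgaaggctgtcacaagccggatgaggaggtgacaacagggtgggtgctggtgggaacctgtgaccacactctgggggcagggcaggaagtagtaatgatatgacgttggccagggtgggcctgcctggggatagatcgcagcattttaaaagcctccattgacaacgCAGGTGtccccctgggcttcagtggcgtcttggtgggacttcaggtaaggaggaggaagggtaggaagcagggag
The Prf1 window held 4 E-boxes, the Gzma window 3 and the Gzmb window 2. Counted from the start site, CAGCTG began at -204 and CAGGTG at -25 in Prf1, and CAGGTG began at -135 and CACCTG at -79 in Gzma, while neither form was among the Gzmb E-boxes CAAATG at -207 and CATCTG at -199. Windows were given for 9 of the 10 genes, 11 in all, with a pair each for Srgn and Gzmm.

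E-boxes were present in 9 of these 11 windows and in 72.3% of the 32851 mouse windows of this length. The letters CAGCTG, which lie within the E-box pattern, were in 2 windows (Prf1 and Srgn) against 16.3% of all. CACCTG or its reverse complement CAGGTG, also within the E-box pattern, was in 2 (Gzma and Prf1) against 20.2% of all. The TCF motif CTTTGA was in 1 window, that of Gzmk, against 16.0% of all windows. The T-box core GTGTGA was in 3 (Gzmb, Gzmk and 1 window of Gzmm) against 14.5%, and the RUNX core TGTGGT in 7 against 16.8%. Both strands were searched, and a match is a description of letters in this window and not of binding.

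Granzyme M (Gzmm, ENSMUSG00000054206, chr10:79689020-79695261, plus strand) cleaves after methionine or leucine and is known from NK cells. It was the only member with a positive log2 difference in Id2KO. Its level was 3.12, 7.15 and 1.45 FPKM for Ctrl, 8.53, 19.3 and 7.05 for Id2KO, 2.38, 4.70 and 6.09 for Tcf1KO, and 4.31, 2.80 and 8.24 for DKO. Id2KO replicate 3 lay just below the highest Ctrl library, so the groups overlapped. The log2 difference between Id2KO and Ctrl was 1.41 ± 0.51 (SE, adjusted p = 0.379), and it was 1.0 without Id2KO replicate 2 and 2.13 without the 3 libraries of low weight. Between 51 and 589 reads lay behind these values.

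Granzyme K (Gzmk, ENSMUSG00000042385, chr13:113171608-113225908, minus strand) is a trypsin-like granzyme encoded near Gzma on the same chromosome. Its level was 5.52, 3.00 and 2.70 FPKM for Ctrl and 2.27, 1.55 and 2.28 for Id2KO, with all 3 Id2KO libraries lower. It was 5.32, 4.6 and 8.43 FPKM in Tcf1KO and 7.09, 4.25 and 2.18 in DKO, both overlapping with Ctrl. The log2 difference was -0.60 ± 0.35 (SE) in Id2KO (adjusted p = 0.630) and 0.60 ± 0.35 (SE) in Tcf1KO (adjusted p = 0.999).

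Granzyme C (Gzmc, ENSMUSG00000079186, chr14:56231441-56234656, minus strand) belongs to the granzyme cluster that also holds Gzmb. It was near the detection limit, with 0 to 59 reads per library. Id2KO replicates 1 and 3 held 0 reads, which allows a level of up to 0.226 and 0.185 FPKM (3 reads, counting error only), while Id2KO replicate 2 held 3.02 FPKM. Values were 2.91, 0.08 and 0.33 FPKM in Ctrl, 0.38, 3.23 and 0.26 in Tcf1KO, and 4.22, 1.22 and 3.30 in DKO, overlapping in every comparison. The DKO difference from Ctrl was 1.05 ± 0.69 (SE, adjusted p = 0.697). Of the other granzymes of this cluster, Gzmd, Gzmg and Gzmn were listed at 0 in all 12 libraries, Gzme reached 0.645 FPKM in DKO replicate 2 and Gzmf 0.0778 in Id2KO replicate 2. These genes are near-identical copies in part, so reads could be split or lost between them and the values are uncertain.

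Serpinb9 (ENSMUSG00000045827, chr13:33003250-33017957, plus strand) encodes an inhibitor that binds granzyme B. Its level was 36.4, 34.1 and 36.7 FPKM for Ctrl, 27.6, 24.7 and 15.9 for Id2KO, 28.2, 24.5 and 28.2 for Tcf1KO, and 18.2, 28.1 and 19.2 for DKO. Like Prf1, it was lower in every library of the 3 Cre groups than in every Ctrl library. Against Ctrl the log2 differences were -0.67 ± 0.21 in Id2KO (adjusted p = 0.310), -0.40 ± 0.21 in Tcf1KO (adjusted p = 0.999) and -0.71 ± 0.21 in DKO (SE, adjusted p = 0.304). The first of these was -0.44 without Id2KO replicate 3 and -0.47 without the 3 libraries of low weight. The ratio of Serpinb9 to Gzmb FPKM was 0.247 to 0.378 for Ctrl and 0.674 to 1.29 for Id2KO, without overlap.

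Serpinb6b (ENSMUSG00000042842, chr13:32965209-32979067, plus strand) encodes a related serpin that inhibits granzyme A. Its level was 28.5, 22.4 and 32.3 FPKM for Ctrl, 23.6, 26.4 and 15.5 for Id2KO, 21.0, 20.6 and 21.4 for Tcf1KO, and 15.3, 19.3 and 17.1 for DKO. DKO libraries were lower than all Ctrl and all Tcf1KO libraries, and Tcf1KO libraries lower than all Ctrl libraries. The log2 difference from Ctrl was -0.64 ± 0.20 in DKO (adjusted p = 0.328), -0.37 ± 0.20 in Tcf1KO (adjusted p = 0.999) and -0.35 ± 0.20 in Id2KO (SE, adjusted p = 0.632). Both serpins have close paralogs on the same chromosome, and how reads that match several copies were counted is not given in the sources used here.

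Serglycin (Srgn, ENSMUSG00000020077, chr10:62493833-62527451, minus strand) had the steadiest level of the 10 genes. Its lowest and highest libraries were 44.8 and 69.7 FPKM, in Ctrl and DKO, the groups overlapped in every comparison, and group means lay between 50.8 and 55.7 FPKM. The fitted log2 differences of the 5 pairwise comparisons were between -0.06 and 0.11 (SE 0.16, adjusted p 0.856 or more).

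Cathepsin W (Ctsw, ENSMUSG00000024910, chr19:5465043-5468507, minus strand) is a cysteine protease of NK and cytotoxic T cells whose function is not well known. Its level was 182, 196 and 234 FPKM for Ctrl, 134, 202 and 176 for Id2KO, 149, 155 and 165 for Tcf1KO, and 161, 196 and 189 for DKO. All Tcf1KO libraries were below all Ctrl libraries, by 0.38 ± 0.17 (SE) on the log2 scale (adjusted p = 0.999), while Id2KO and DKO overlapped with Ctrl.

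Read as a set, the 10 genes had no member past an adjusted p of 0.05 in any of the 6 comparisons with limma. Of the 12384 genes tested, 0.178% were called in Id2KO against Ctrl, 0.0% in Tcf1KO against Ctrl, 0.145% in DKO against Ctrl, 0.121% in DKO against Id2KO, 0.0565% in DKO against Tcf1KO and 0.0% for the difference of effects. At an unadjusted p under 0.05 the counts were 5 of 10 in Id2KO (all genes 9.71%), 1 in Tcf1KO (4.8%), 4 in DKO (9.44%), 2 in DKO against Id2KO (10.9%), 1 in DKO against Tcf1KO (6.73%) and 2 for the difference of effects (5.94%). With voom on reads recovered from the FPKM, 2 genes (Gzmb and Prf1) were called in Id2KO against Ctrl and 0 in the other 5 comparisons. Over all genes voom called 33 in Id2KO against Ctrl.

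Counting members whose libraries did not overlap between groups, 5 were lower in Id2KO than in Ctrl (Gzma, Gzmb, Gzmk, Prf1 and Serpinb9), against 6.75% of all tested genes. The count was 4 in Tcf1KO (Prf1, Serpinb9, Serpinb6b and Ctsw; all genes 5.73%) and 4 in DKO (Gzmb, Prf1, Serpinb9 and Serpinb6b; all genes 7.27%). No member was higher than Ctrl without overlap in any group, where all genes gave 7.11% for Id2KO, 4.96% for Tcf1KO and 6.28% for DKO. Between DKO and Id2KO only Gzma was apart, on the higher side (all genes 6.34%), and 0 were on the lower side (all genes 8.32%). DKO was below Tcf1KO for Gzmb and Serpinb6b (all genes 6.9%) and above it for 0 (all genes 5.74%). The 3 comparisons with Ctrl share their control libraries.

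The median log2 difference of the 10 genes was -0.48 for Id2KO, 0.04 for Tcf1KO and -0.06 for DKO against Ctrl. Over all tested genes the same medians were -0.01, -0.00 and -0.01. In Id2KO 9 of the 10 genes had a negative difference, in Tcf1KO 4 and in DKO 5. DKO against Id2KO had a median of 0.32, with 7 of 10 positive.

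**Figure D3:**
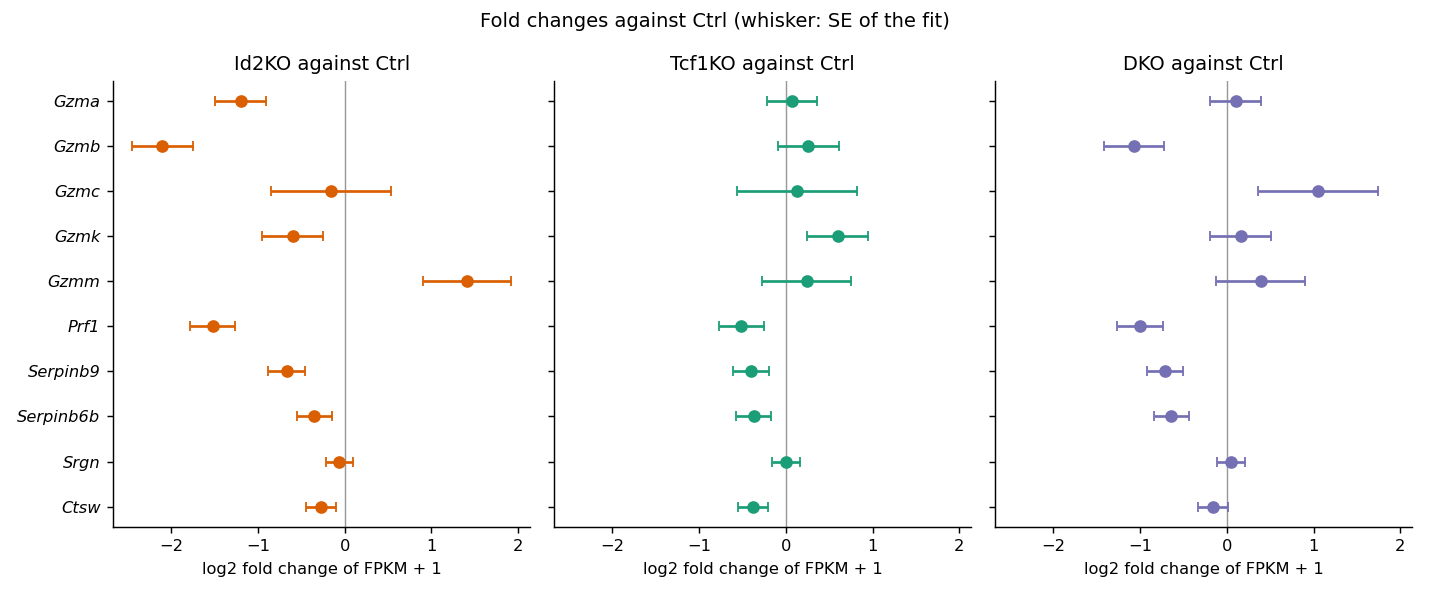
Log2 fold change of FPKM + 1 against Ctrl for the 10 granule genes in the 3 Cre groups, with whiskers for the SE of the fit (n = 3 libraries a group). Gzmb, Prf1 and Gzma lie farthest to the left in Id2KO, at -2.10, -1.52 and -1.20, and Gzmm to the right at 1.41. In DKO Gzma sits at 0.10.

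RNA of other bone marrow cells moved with the groups and is given beside these results. The 12 neutrophil and myeloid markers, led by S100a8, summed to 864 to 3527 FPKM for Ctrl, 58.2 to 1007 for Id2KO, 1122 to 4100 for Tcf1KO and 303 to 775 for DKO, and their members Elane and Cebpe were at 0 in all Id2KO libraries. The 8 basophil and mast cell markers, led by Prss34, summed to 159 to 619 FPKM for Ctrl, 14.4 to 89.3 for Id2KO, 47.0 to 733 for Tcf1KO and 51.8 to 563 for DKO. Mcpt4 was at 0 in all Ctrl, Id2KO and DKO libraries, and Tpsb2 in all Id2KO and DKO libraries. All 11 tested myeloid markers and all 6 tested basophil and mast cell markers had negative log2 differences in Id2KO against Ctrl (medians -3.20 and -2.78). The same held in DKO against Ctrl, with medians of -2.24 and -1.11. In Tcf1KO 5 of the 11 and 6 of the 6 were negative, with medians of 0.06 and -0.63.

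The 9 erythroid markers, led by Hbb-bs, summed to 746 to 4720 FPKM for Ctrl, 166 to 1878 for Id2KO, 1320 to 3420 for Tcf1KO and 437 to 2666 for DKO, with none at 0 throughout a group. Against Ctrl all 9 were negative in Id2KO (median -2.02) and in DKO (-0.35), and all 9 were positive in Tcf1KO (0.64). The part of myeloid, basophil, mast and erythroid cells in the differences of the granule genes was not tested.

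The 11 T and NKT cell markers, led by Trbc1, summed to 978 to 1158 FPKM for Ctrl, 1294 to 1751 for Id2KO, 1416 to 1901 for Tcf1KO and 1851 to 2261 for DKO, so the sums of all 3 Cre groups lay above Ctrl. By gene the list was mixed in Id2KO, with 5 of 11 markers negative and a median log2 difference of 0.03, and the abundant Trbc1 (397 FPKM in Ctrl and 648 in Id2KO) and Cd3d (28.1 and 77.4) among those higher. Limma called 1 of the 11 in Id2KO against Ctrl, on the higher side (adjusted p at or under 0.05, all genes 0.178%). In Tcf1KO 9 and in DKO 10 of the 11 were positive, with medians of 1.135 and 1.02 against Ctrl and 0 called. NK cells express part of that list themselves. The 6 B cell markers, led by Ighm, summed to 165 to 249 FPKM for Ctrl, 352 to 414 for Id2KO, 152 to 207 for Tcf1KO and 252 to 282 for DKO. The 4 plasmacytoid dendritic cell markers, led by Cox6a2, summed to 7.20 to 15.1, 25.6 to 38.8, 7.51 to 15.3 and 24.2 to 40.4 FPKM in that order. Cox6a2 made up most of this sum, at 8.01 FPKM in Ctrl and 32.3 in Id2KO, while the other members had lower means in Id2KO: Siglech 0.359 and 0.0928, Ccr9 0.779 and 0.0971, and Tcf4 1.53 and 1.08 FPKM. No marker of these 3 lists was at 0 in all libraries of a group, and the part of such cells in the granule gene levels was not tested.

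Other genes of the granule pathway were read from 6 lists of 67 genes, of which 66 were matched and 55 tested. None was called by limma in any of the 6 comparisons, and voom called 3 (Prdm1, Zeb2 and Lyst, in Id2KO against Ctrl, beside 33 over all genes). At an unadjusted p under 0.05 that comparison held 1 of 3 tested other serpins, 3 of 17 genes of granule processing, 1 of 20 of exocytosis, 2 of 6 death ligands and cytokines and 3 of 9 regulators, beside 9.71% of all tested genes. Among the other serpins 3 of 8 were tested (Serpinb1a, Serpinb6a and Serpinb9b), with a median of -1.25 in Id2KO against Ctrl. That median is the value of Serpinb1a, whose libraries overlapped (SE 0.65, limma, adjusted p = 0.585). Serpinb6a stood at -0.16 ± 0.34 (SE, adjusted p = 0.927). Serpinb9b, a paralog of Serpinb9, averaged 5.55 ± 0.597 FPKM for Ctrl, 1.98 ± 1.76 for Id2KO, 3.97 ± 1.91 for Tcf1KO and 1.57 ± 0.896 for DKO (SD, n = 3). Its log2 difference was -1.29 ± 0.41 in Id2KO (adjusted p = 0.310) and -1.41 ± 0.41 in DKO (SE, adjusted p = 0.294).

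The 17 genes of granule processing and membrane had a median of -0.19 for Id2KO, 0.07 for Tcf1KO and -0.15 for DKO against Ctrl. Lyst, which controls the size of lysosome-related granules, stood at 12.3 ± 0.981 FPKM for Ctrl, 23.2 ± 3.53 for Id2KO, 16.3 ± 0.398 for Tcf1KO and 22.0 ± 5.67 for DKO (SD, n = 3). All libraries of the 3 Cre groups were above Ctrl for Lyst, by 0.85 ± 0.18 in Id2KO (adjusted p = 0.136) and 0.76 ± 0.18 in DKO (SE, adjusted p = 0.163). Calr, the calcium-binding chaperone calreticulin, was lower in DKO (24.7 ± 4.12 FPKM) than in all Id2KO libraries (40.8 ± 5.92), by 0.71 ± 0.18 on the log2 scale (SE, adjusted p = 0.184). Igf2r and Gnptab act in the mannose 6-phosphate sorting by which granzymes reach the granule. Igf2r was 0.62 ± 0.16 above Ctrl in DKO (SE, adjusted p = 0.217), and Gnptab 0.63 ± 0.16 higher in DKO than in Id2KO (SE, adjusted p = 0.191).

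The exocytosis machinery had medians of -0.04 for Id2KO, -0.10 for Tcf1KO and -0.13 for DKO against Ctrl over 20 tested genes. Over all tested genes they were -0.008, -0.002 and -0.009. In DKO 15 of the 20 were negative, and 5 were lower than Ctrl without overlap (all genes 7.27%). Stxbp2, needed for granule fusion, stood 0.49 ± 0.21 below Ctrl in DKO (SE, adjusted p = 0.509). Sytl2, which binds Rab27 on secretory granules, stood 0.51 ± 0.21 below Ctrl in Id2KO (SE, adjusted p = 0.455). For Coro1a, an actin regulator, DKO was 0.47 ± 0.18 below Id2KO (SE, adjusted p = 0.375), and for Sytl1 0.78 ± 0.31 above it (SE, adjusted p = 0.385).

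The 6 death ligands and effector cytokines, which act beside or without the granule, had a median of 0.74 in DKO against Ctrl, with 6 of 6 positive, and of -0.06 in Id2KO. Tnfsf10, the death ligand TRAIL, averaged 9.73 ± 0.801 FPKM for Ctrl, 8.78 ± 2.48 for Id2KO, 20.5 ± 4.88 for Tcf1KO and 20.4 ± 5.31 for DKO (SD, n = 3). All Tcf1KO and DKO libraries were above all Ctrl and Id2KO libraries for Tnfsf10, by 1.13 ± 0.24 between DKO and Id2KO (SE, adjusted p = 0.135). Fasl was 0.86 ± 0.24 higher in DKO than in Id2KO (SE, adjusted p = 0.227), and Ltb 0.86 ± 0.26 above Ctrl in Id2KO (SE, adjusted p = 0.285). Lta was 1.58 ± 0.45 higher in DKO than in Tcf1KO (SE, adjusted p = 0.392).

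Of the 9 regulators of granule genes, Prdm1 (Blimp-1) had the smallest p. It averaged 8.40 ± 2.76 FPKM for Ctrl, 2.08 ± 0.954 for Id2KO, 6.89 ± 0.934 for Tcf1KO and 3.79 ± 0.715 for DKO (SD, n = 3). The order of these means was that of Gzmb apart from Ctrl and Tcf1KO, and the Id2KO difference of -1.61 ± 0.27 missed the threshold (SE, adjusted p = 0.0506). Zeb2, a transcription factor needed for late NK cell maturation, was 1.17 ± 0.25 below Ctrl in Id2KO (SE, adjusted p = 0.140). Eomes, a T-box factor required for NK cell development, was 0.80 ± 0.17 below Ctrl in Tcf1KO (adjusted p = 0.318) and 0.85 ± 0.17 below it in DKO (SE, adjusted p = 0.109). Tbx21 (T-bet) was 0.73 ± 0.17 lower in DKO than in Tcf1KO (SE, adjusted p = 0.267).

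**Figure D4:**
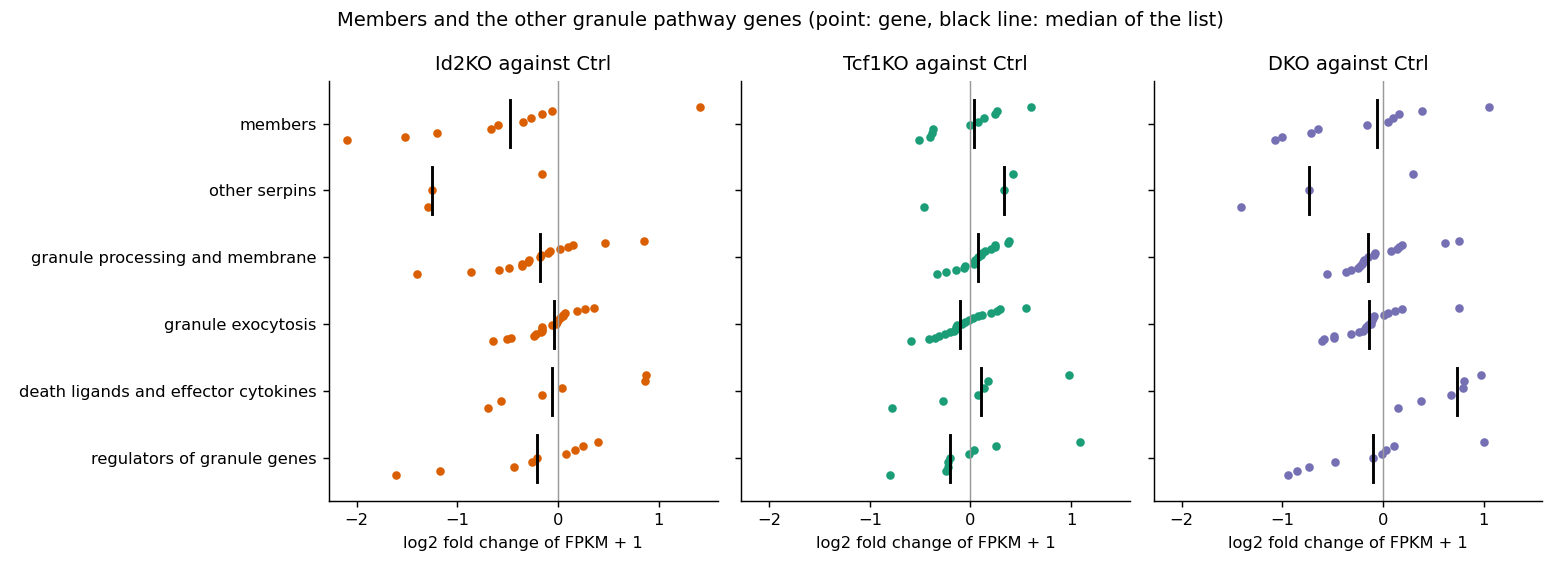
Log2 fold change of FPKM + 1 against Ctrl for each tested gene of the 10 granule genes (top row) and of the pathway lists with tested genes, in the 3 Cre groups, with a black line at each list's median. The granule genes spread from -2.10 to 1.41 in Id2KO, and the death ligands and effector cytokines have a median of 0.74 in DKO.

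The genes whose levels ran most like those of each granule gene are given as a description, by Pearson's r of log2(FPKM + 1) over the 12 libraries, which share depth and other-cell RNA. For Gzma they were Klrb1b (r = 0.932), Card19 (0.920) and Fgl2 (0.895). For Gzmb they were the receptor Klrg1 (r = 0.906), Zeb2 (0.899) and Ppp1r3b (0.896), and for Prf1 Marveld1 (0.922), S1pr5 (0.910) and Id2 itself (0.881). Klrg1 averaged 24.3 FPKM for Ctrl, 1.86 for Id2KO, 35.7 for Tcf1KO and 4.73 for DKO, the same order of groups as Gzmb. Fgl2 averaged 38.9, 8.75, 66.6 and 59.1 FPKM, with Id2KO lowest as for Gzma.

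The integrin Itga2 (CD49b, a sorting marker) was among the 3 nearest genes of Serpinb9, with Tm6sf1 and Klhl30 (r = 0.914, 0.920 and 0.901). Flna, Faf2 and Itgal were nearest to Serpinb6b (r = 0.930, 0.885 and 0.885). Gzmm ran most like Chchd7 (r = 0.889), Gzmk like Dennd5a (0.848), Srgn like Fam110c (0.878), Ctsw like Pibf1 (0.836) and Gzmc like Zfp653 (0.886). Fam110c averaged 0.676 FPKM for Ctrl, 0.00881 for Id2KO, 0.538 for Tcf1KO and 0.800 for DKO, low values beside the steady level of Srgn. The highest r lay between 0.836 and 0.932 over the 10 genes. Each was picked as the highest among the tested genes over only 12 libraries, and the r that noise alone would give was not tested.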

How the data were processed

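RNA of 12 sorted NK cell libraries was sequenced, and the authors deposited FPKM for 37991 genes. Per the submitters' processing notes the tools were Trimmomatic 0.33, TopHat2 2.1.0, HTSeq 0.6.1 and edgeR, on mm10. Symbols and positions came from GENCODE M21 (GRCm38) and promoter windows from RefSeq (GRCm38.p6). Genes at FPKM 1 or more in at least 3 libraries, 12384 in all, were tested on log2(FPKM + 1). All 10 granule genes passed that filter. limma 3.58.1 in R 4.3.3 was fitted with group as its term to all 12 libraries, with a variance trend, two-sided moderated tests and Benjamini-Hochberg adjustment over all tested genes of a comparison (threshold 0.05). The procedure was tested on simulated data.

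The values of all 23707 genes above 0 were whole multiples of what 1 read is worth (tolerance 0.001 reads), so 13975523 to 20208160 reads per library were recovered for voom, a count-based alternative. The difference of effects was (DKO minus Tcf1KO) minus (Id2KO minus Ctrl).

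The members and lists were chosen with earlier results of these data known. Named besides the 10 members were up to 4 genes per pathway list with the smallest p in any comparison, the gene of highest mean level in each other-cell list, the 3 genes most alike each member (Gm, Rik and unnamed genes passed over), Id2 and Tcf7. Serpinb6a, Gzmd, Gzme, Gzmf, Gzmg, Gzmn and the markers at 0 were named with their lists, and Ncr1, Itga2, Cd3d, Siglech, Ccr9 and Tcf4 after their values were seen. Settings varied were the pseudocount (0.1 and 0.5), the filter (none and FPKM 5), median scaling, a replicate block, a fit of the compared groups only, array weights, voom, and leaving out libraries.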

Additional observations from a re-analysis of the deposited data

How the results depend on the processing

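The count of granule genes called in Id2KO against Ctrl was 0 as reported and 2 (Gzmb and Prf1) with a filter at FPKM 5, with array weights and with voom on recovered reads. Over all genes these 3 settings called 23, 33 and 33 in that comparison. Leaving out each library in turn gave 0 to 2, with 2 without DKO replicate 2 (all genes 20) and 2 without DKO replicate 3 (all genes 27). Both of these libraries are outside that comparison, and leaving out any Ctrl or Id2KO library gave 0. For DKO against Ctrl this range was 0 to 1 (Prf1 without DKO replicate 2, all genes 8). No setting called a granule gene in the other 4 comparisons. The 15 gene results with an unadjusted p under 0.05 were refitted 328 times in all. None of the 15 had passed the threshold as reported, so the 317 refits that kept their side of it only stayed uncalled. The other 11 refits passed it, and 0 changed direction.

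Calls in the pathway lists, 0 as reported over all comparisons, were 1 with a filter at FPKM 5, 1 with median scaling, 1 with array weights (all 3 Prdm1 in Id2KO), 1 with the replicate block (Ifng in DKO against Id2KO, 1.25, adjusted p = 0.0387) and 3 with voom (Prdm1, Zeb2 and Lyst in Id2KO). Leaving out a library gave 0 to 1.

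The labels do not say what a replicate number marks, and 6 of 18 same-numbered pairs, all of them among Ctrl, Tcf1KO and DKO, correlated over 0.1 (range -0.14 to 0.272), so the numbers did not meet the criterion for pairing, that every pair does. These are correlations of deviations from the group mean. As a hint from the data, not the design, 9 of 12 libraries correlated most, among libraries of other groups, with one of their own number. These were all the libraries of Ctrl, Tcf1KO and DKO, and no Id2KO library did so. With the replicate block 0 granule genes were called, with adjusted p = 0.0705 for Gzmb and 0.0913 for Prf1 in Id2KO, and calls over all genes in DKO against Tcf1KO were 15 in place of 7.

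Over all genes Id2KO against Ctrl had 22 calls, 2 with only the compared groups and 33 with voom. Median scaling moved the median of all genes by less than 0.1 in each comparison. Reads per library limit Gzmc, at 0 to 59 reads.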
